A study of Mus musculus with 6 samples.

Results

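The genes described here are 3 FoxO transcription factors (Foxo1, Foxo3 and Foxo4) and 7 genes around the kinase mTOR (Sesn1, Sesn3, Mtor, Rptor, Tsc1, Tsc2 and Ddit4). They were taken by gene name among the probes of a mouse microarray that are not controls. All 10 of the 10 names were found, with 21 probes in all, out of 37074 gene names and 56605 probes on the array.

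RNA was measured in LSK cells, the Lineage marker-, Sca1+ and cKit+ fraction of bone marrow that holds haematopoietic stem cells (HSCs) and early progenitors. The cells came from C57BL/6 mice aged P6 to P8. Both groups carried the VaviCre transgene, which is active in haematopoietic tissue, so the controls (Atg5w/w;Vav, with unfloxed Atg5 alleles) were exposed to Cre as well, while the other group had floxed Atg5 alleles (Atg5f/f;Vav). There were 3 samples per group, each on 1 array, and the sources used here do not say whether a sample was 1 mouse or several. In such bulk samples, fewer cells of a type and less RNA per cell cannot be told apart.

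Atg5 is needed for autophagy, the delivery of cytoplasm to lysosomes for breakdown. mTOR complex 1, built from the kinase Mtor and the scaffold Rptor, promotes protein synthesis and holds autophagy back when amino acids and growth factors are plentiful. The Tsc1 and Tsc2 proteins form a complex that switches off Rheb, the activator of mTOR complex 1, while the sestrins and Ddit4 (REDD1) restrain the complex under amino acid shortage or stress. FoxO factors are kept out of the nucleus by Akt, a kinase of the insulin and growth factor pathway. In HSCs they are known for supporting quiescence and resistance to oxidative stress, and sestrins are among the genes they activate.

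The measurement at each probe is the pairing of labelled RNA with its bases. Of the genes with several probes, Foxo3 has the most that gave the same call, and its probes on the RefSeq mRNA are shown because the larger differences were read at them. They lie on the minus strand of chromosome 10 in mm9, at chr10:41916349-41916408 and chr10:41994961-41995020, and are printed in lower case throughout because the whole run is the target.

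Foxo3, probe nearer the 3′ end: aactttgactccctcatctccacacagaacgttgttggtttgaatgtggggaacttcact

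Foxo3, probe nearer the 5′ end: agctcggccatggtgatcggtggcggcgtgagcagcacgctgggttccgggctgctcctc

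The letters of the FoxO binding consensus, GTAAACA on either strand (TGTTTAC on the other), were searched in RefSeq promoters of GRCm38.p6, each running from 250 bases before to 50 bases after a transcript start. They were present in 3.65% of all 32851 promoters. Of the 10 genes, 9 matched the table with 10 promoters, and 1 of these held the letters. It is a promoter of Sesn1, a sestrin, on the plus strand of chromosome 10. The motif starts at base 23 of the transcript, and the 30 bases around it, chr10:41810584-41810613, are shown with the motif in capitals.

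Sesn1: agaaccttctacTGTTTACcagccttttgg

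Of 31 promoters of genes listed as FoxO targets, 5 (16.1%) held the letters. They belong to Bcl2l11, Txnip, Trim63, Bbc3 and Btg1. Txnip, which encodes an inhibitor of thioredoxin and of glucose uptake, was the only one of these 5 past the test described below (Trim63 was too dim to test), and was chosen for display after its values were seen. Its motif starts 121 bases before the transcript start on the plus strand of chromosome 3, in the 250 bases at chr3:96557707-96557956, again with the motif in capitals.

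Txnip: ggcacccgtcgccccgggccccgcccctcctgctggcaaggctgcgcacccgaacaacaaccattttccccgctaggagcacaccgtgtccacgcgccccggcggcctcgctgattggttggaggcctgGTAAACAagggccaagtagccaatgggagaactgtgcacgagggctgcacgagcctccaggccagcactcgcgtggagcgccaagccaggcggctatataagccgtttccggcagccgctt

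A match describes these letters only and says nothing of whether a factor binds there.

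Values below are log2 signals relative to the 75th percentile of the same array, so that 0 is that percentile and a difference of 1 is a doubling. A gene is represented by its brightest probe, and a gene is called where limma gave an adjusted p (Benjamini-Hochberg over all 32074 probes tested) under 0.05. With 3 arrays against 3, an exact permutation test of a single value cannot go below a 2-sided p of 0.1, which was reached wherever the groups did not overlap. Replicate numbers do not say that samples are from separate mice, so p-values measure only the spread between these samples, which may be technical.

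Within groups, arrays correlated at 0.993 for controls and 0.982 to 0.992 for Atg5f/f;Vav, and 51.6% to 58.1% of probes were well above background. All arrays shared 1 slide, with each genotype in a row of its own, so an effect of genotype and one of slide row cannot be told apart. The single Atg5 probe, whose place relative to the floxed part was not examined here, was higher on the arrays labelled Atg5f/f;Vav (1.57 ± 0.15, SD, n = 3) than on the controls (1.03 ± 0.08, n = 3), with an adjusted p of 0.0209, so the direction of each difference rests on the labels. Of 10 LSK markers, all 10 were well above background on all 6 arrays. Kit, an antigen of the sort, was at 4.02 ± 0.09 in controls and 3.64 ± 0.16 in Atg5f/f;Vav (n = 3 each, adjusted p = 0.0561), and Ly6a, which encodes Sca1, the other sort antigen, rose by 1.57. The stem cell regulators Mecom and Hlf and the receptor gene Procr fell by 1.75, 1.65 and 1.56 (adjusted p = 0.0168, 0.0172 and 0.0273).

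Marker sums of some other cell types differed between the groups, while those of megakaryocyte, B cell, and T and NK cell markers overlapped. The summed signal of 8 neutrophil markers was 78.2 to 164 times the 75th percentile on control arrays and 37.8 to 67.2 times on Atg5f/f;Vav arrays. Of the 8, 7 were called lower and 1 higher, beside 15.3% and 18.7% of all genes tested. The summed signal of 10 erythroid markers was 223 to 507 times in controls and 76.4 to 117 times in Atg5f/f;Vav. Its largest part was the globin gene Hba-a1, with 94.4% to 94.8% of the sum in controls and 66% to 83.9% in Atg5f/f;Vav. Hba-a1, Slc4a1, Alas2 and Hbb-b1 fell by 2.26, 2.29, 2.07 and 1.92 on the log2 scale (adjusted p = 0.0136, 0.0149, 0.0168 and 0.0170), while Car1, Klf1, Rhag and Epor rose by 3.80, 2.95, 2.41 and 2.08 (adjusted p = 0.0138, 0.0159, 0.0290 and 0.0181). The summed signal of 8 stromal markers was 3.45 times on control replicate 1 and 32.3 and 25.4 times on control replicates 2 and 3. It was 2.32 to 3.01 times on the Atg5f/f;Vav arrays, and 3 of the 6 tested were called lower, beside 15.3% of all genes. The sums of 5 megakaryocyte markers were 6.09 to 7.47 times in controls and 5.77 to 6.17 times in Atg5f/f;Vav. Of the 5, 2 were called higher and 2 lower, beside 18.7% and 15.3% of all genes. Macrophage, B cell, and T and NK cell markers summed to 4.77 to 6.34, 9.26 to 12.4 and 5.54 to 9.73 times in controls, and to 6.57 to 6.69, 10.8 to 17.9 and 8.69 to 10.1 times in Atg5f/f;Vav. Of these 3 lists only Cd79a of the B cell list was called (higher). Mrc1, Cd3g, Cd8a and the stromal Col3a1 were not well above background on any array. The part of these cells in the differences below was not tested.

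Of the 10 genes, 9 could be tested. Foxo1, Foxo3, Sesn1 and Sesn3 fell in Atg5f/f;Vav LSK cells, Mtor rose, and Rptor, Tsc1, Tsc2 and Ddit4 were not called. Foxo4 was too dim to test. The 5 genes called are 55.6% of those tested, beside 34.0% of the 20774 genes tested on the whole array. The 4 lower stand beside 15.3% of all genes called lower, and the 1 higher beside 18.7% called higher. Of the 9 genes, 7 had groups that did not overlap, beside 55.9% of all genes. The median log2 fold change of the 9 genes was −0.39 and that of all genes tested −0.03. Since the genes were chosen with results of these arrays known, these shares are descriptions.

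**Figure D1:**
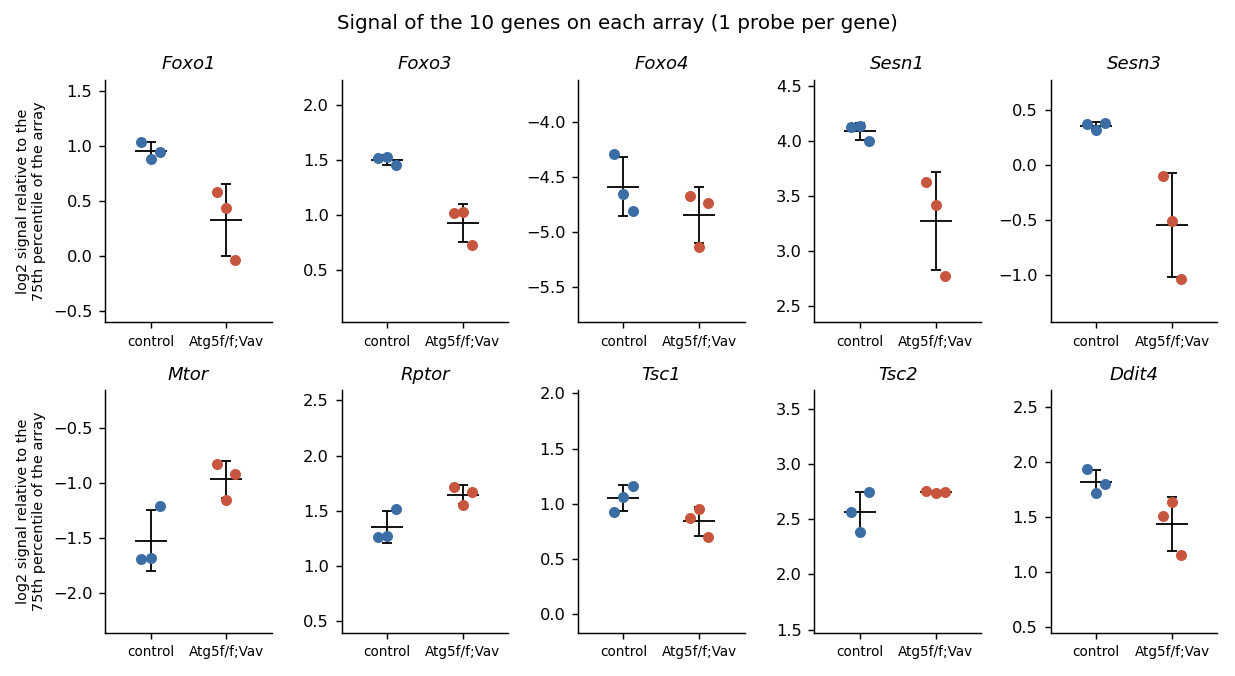
Log2 signal of the 10 genes relative to each array's 75th percentile, at the brightest probe of each gene, for 3 control (blue) and 3 Atg5f/f;Vav (red) arrays. Every panel spans the same log2 range, bars give the mean and SD, and the points of Foxo1, Foxo3, Sesn1, Sesn3 and Ddit4 lie lower in Atg5f/f;Vav without overlap, while those of Mtor and Rptor lie higher without overlap.

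Among the FoxO factors, Foxo3, the member best known for HSC maintenance, fell at each of its 3 probes. Its brightest probe, on an Ensembl transcript at chr10:41901997-41902056 (mm9, minus strand), read 1.52, 1.53 and 1.45 in controls and 1.02, 1.03 and 0.73 in Atg5f/f;Vav. Every Atg5f/f;Vav array lay below every control array, by a log2 fold change of −0.57 ± 0.12 (SE, n = 3 per group, adjusted p = 0.0189), that is 1.49-fold lower.

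The 2 probes shown above fell further. At the probe nearer the 3′ end, the controls read 0.67, 0.76 and 0.63 and the Atg5f/f;Vav arrays −0.41, −0.23 and −0.20, which is 1.95-fold lower (limma, adjusted p = 0.00899). At the probe nearer the 5′ end they read −2.18, −2.06 and −2.36 against −3.45, −3.13 and −3.05, or 2.02-fold lower (limma, adjusted p = 0.0138). Both showed controls and Atg5f/f;Vav fully apart. Set against the brightest probe within each array, the fall was larger by 0.39 at the first of these probes (exact permutation p = 0.1, the smallest possible) and by 0.44 at the second (exact permutation p = 0.2).

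Foxo1, the FoxO factor studied most in lymphocytes and metabolism, also fell, with more spread. At its brightest probe, on the RefSeq mRNA (chr3:52150946-52151005, mm9, plus strand), the controls read 1.04, 0.88 and 0.95 and the Atg5f/f;Vav arrays 0.58, 0.44 and −0.04. The groups did not overlap, and replicate 3 of Atg5f/f;Vav was the lowest. The log2 fold change was −0.63 ± 0.17 (SE, n = 3 per group, adjusted p = 0.0340), that is 1.55-fold lower. The other probe of Foxo1, further 3′, had a log2 fold change of −0.39 (95% interval −0.80 to 0.01, adjusted p = 0.111) and overlapping groups.

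Foxo4 was dim. Its brighter probe (chrX:98454216-98454275, mm9, plus strand) read −4.29, −4.65 and −4.81 in controls and −4.67, −5.14 and −4.74 in Atg5f/f;Vav, and was well above background on 2 control arrays and on 0 of the Atg5f/f;Vav arrays. The ranges overlapped, and no fold is given. Its other probe was not well above background on any array.

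Among the inhibitors of mTOR complex 1, both sestrins of the group fell. Sesn1, a leucine-responsive inhibitor, was measured by 1 probe on the RefSeq mRNA (chr10:41628000-41628059, mm9, plus strand). It read 4.13, 4.14 and 4.0 in controls and 3.63, 3.42 and 2.77 in Atg5f/f;Vav. All Atg5f/f;Vav values were lower than all control values, with the lowest on replicate 3, and the log2 fold change was −0.81 ± 0.22 (SE, n = 3 per group, adjusted p = 0.0318), or 1.76-fold lower.

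Sesn3, a sestrin known as a FoxO target that links FoxO activity to mTOR complex 1, fell at both of its probes. Its brighter probe, on a cDNA clone (chr9:14137354-14137413, mm9, plus strand), read 0.37, 0.32 and 0.38 in controls and −0.09, −0.51 and −1.03 in Atg5f/f;Vav. The controls lay within 0.06 of each other, while the Atg5f/f;Vav arrays spread over 0.94, all below the controls. The log2 fold change was −0.90 ± 0.23 (SE, n = 3 per group, adjusted p = 0.0266), or 1.87-fold lower. The probe on the RefSeq mRNA was 1.88-fold lower (adjusted p = 0.0192), and the change at both probes differed by only 0.01 within arrays (exact permutation p = 0.9).

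Replicate 3 of Atg5f/f;Vav was the lowest array at the brightest probes of Foxo1, Foxo3, Sesn1, Sesn3 and Ddit4. It was also the one with the fewest probes well above background (51.6%). At the 2 other Foxo3 probes, replicate 3 was instead the highest of the Atg5f/f;Vav arrays (−0.20 and −3.05). Without replicate 3 the log2 fold changes at the brightest probes were −0.45 for Foxo1, −0.48 for Foxo3, −0.56 for Sesn1 and −0.66 for Sesn3. All 4 remained called (adjusted p = 0.0326, 0.0220, 0.0221 and 0.0240).

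Ddit4, a stress-induced gene whose protein acts through the Tsc complex, was not called. Its probe (chr10:59412486-59412545, mm9, minus strand) read 1.94, 1.72 and 1.80 in controls and 1.51, 1.63 and 1.16 in Atg5f/f;Vav. The groups did not overlap, but the log2 fold change of −0.39 ± 0.15 (SE, n = 3 per group) had an adjusted p of 0.0871. It was called with quantile normalisation (−0.54, adjusted p = 0.0482) and with scaling over the probes detected on all arrays (−0.59, adjusted p = 0.0311). Without replicate 3 of Atg5f/f;Vav it was at −0.25 (adjusted p = 0.152).

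The Tsc genes were each read at a bright and a dimmer probe. For Tsc1, the brighter probe (chr2:28546610-28546669, mm9, plus strand) read 0.92, 1.06 and 1.16 in controls and 0.87, 0.95 and 0.70 in Atg5f/f;Vav. The ranges overlapped and the log2 fold change of −0.21 (95% interval −0.50 to 0.08) was not called. A dimmer probe of Tsc1, also on the RefSeq mRNA, read −2.78, −2.81 and −2.72 against −3.50, −3.11 and −3.13, which is 1.39-fold lower (adjusted p = 0.0389). The changes at both probes of Tsc1 differed by −0.27 within arrays (exact permutation p = 0.3).

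For Tsc2, the brighter probe (chr17:24732761-24732803, mm9, minus strand) read 2.57, 2.39 and 2.75 in controls and 2.75, 2.74 and 2.75 in Atg5f/f;Vav, with a log2 fold change of 0.18 (95% interval −0.12 to 0.47) that was not called. The probe assigned to another RefSeq variant of Tsc2 read −2.90, −3.20 and −2.89 in controls and −2.09, −2.34 and −2.44 in Atg5f/f;Vav, or 1.63-fold higher (adjusted p = 0.0179). At this dimmer probe the groups did not overlap. The difference between the probes' changes was 0.53 (exact permutation p = 0.1, the smallest possible).

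Among the parts of the kinase complex, Mtor, the catalytic subunit, rose. Its probe on the RefSeq mRNA (chr4:147931250-147931309, mm9, plus strand) read −1.69, −1.68 and −1.21 in controls and −0.83, −1.15 and −0.92 in Atg5f/f;Vav. Control replicate 3 lay within 0.05 of the lowest Atg5f/f;Vav array, and the groups did not overlap. The log2 fold change was 0.56 ± 0.17 (SE, n = 3 per group, adjusted p = 0.0442), or 1.47-fold higher. A second probe, on an Ensembl transcript at chr4:147829016-147829075, read −3.11, −2.76 and −2.54 against −2.14, −2.23 and −1.42, or 1.84-fold higher (adjusted p = 0.0367).

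Rptor, the scaffold that brings substrates to mTOR, was not called at any of its 3 tested probes, and those did not move one way. The bright probe on the RefSeq mRNA (chr11:119760596-119760655, mm9, plus strand) read 1.26, 1.27 and 1.52 in controls and 1.72, 1.55 and 1.66 in Atg5f/f;Vav. The groups did not overlap, but the log2 fold change of 0.30 ± 0.12 (SE, n = 3 per group) had an adjusted p of 0.0954. The probes on a cDNA clone and on an Ensembl transcript had log2 fold changes of −0.17 (95% interval −0.54 to 0.21) and −0.33 (−0.74 to 0.09). The last probe was well above background on 1 array only and was not tested.

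**Figure D2:**
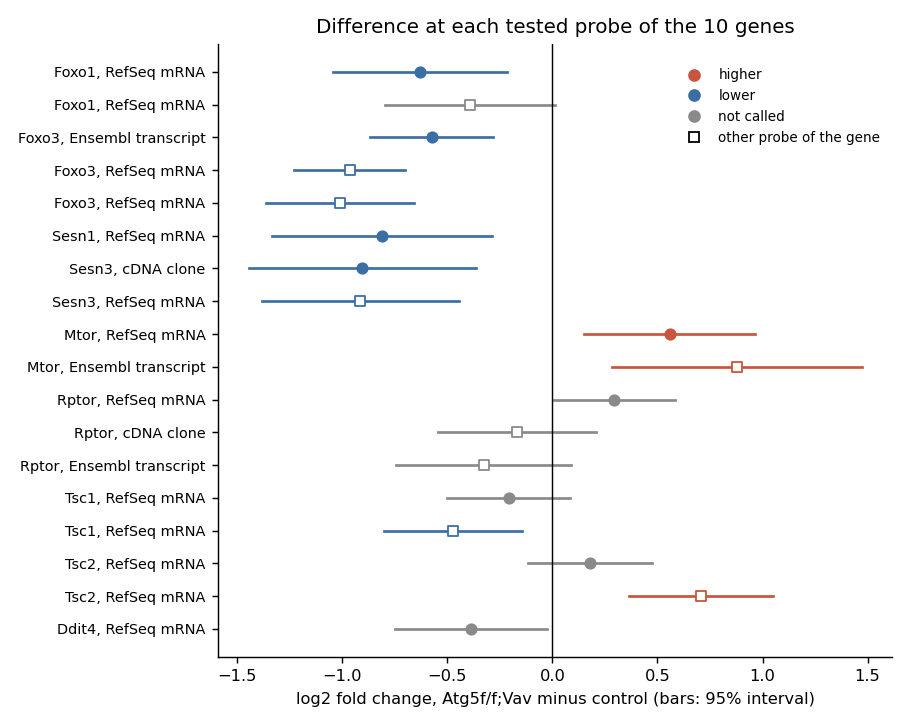
Log2 fold change (Atg5f/f;Vav minus control) with its 95% interval at each of the 18 tested probes of the 10 genes, named by the kind of transcript they were designed on. Filled circles are the brightest probe of a gene, open squares its other probes, and colour gives the call: all 3 Foxo3 probes and both Sesn3 probes are lower, both Mtor probes are higher, and Rptor probes lie on either side of 0.

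Over all probes of the 10 genes, 18 of 21 were tested and 11 called, 8 lower and 3 higher, beside 34.4% of all probes called. Of all probes called, 50.3% were higher in Atg5f/f;Vav, and 25.0% when arrays were scaled over the probes detected on all of them. That scaling moved the median of all probes from −0.06 to −0.27. Both scalings subtract 1 constant per array, so the distance of a gene from these medians is the same under both by construction. That distance was 0.62 above the median for Mtor, 0.57 below for Foxo1 and 0.51 below for Foxo3. As a direct value with scaling over the detected probes, Mtor was at 0.35 and no longer called (adjusted p = 0.107). Tsc1 at −0.42 became called (adjusted p = 0.0367) and Tsc2 turned to −0.029 (adjusted p = 0.836).

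The calls of these genes, like those of all probes, changed when single arrays were left out. Without control replicate 1, none of the 9 genes passed limma's adjusted threshold (4 had an unadjusted p under 0.05). The same counts were found without control replicate 2. Over the whole array, 330 and 251 of 32074 probes were then called, against 11024 with all arrays. Foxo3, with the lowest adjusted p of the 9 genes in both cases, was at −0.57 (adjusted p = 0.0753) and −0.56 (adjusted p = 0.0772). Without control replicate 3, Foxo3 and Mtor were called, and without replicate 2 of Atg5f/f;Vav only Foxo3, beside 8344 and 7722 of all probes. Without replicate 1 or replicate 3 of Atg5f/f;Vav, 4 genes were called, beside 10304 and 9701 of all probes. The call of Mtor was lost in both cases (adjusted p = 0.0976 and 0.0797).

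**Figure D3:**
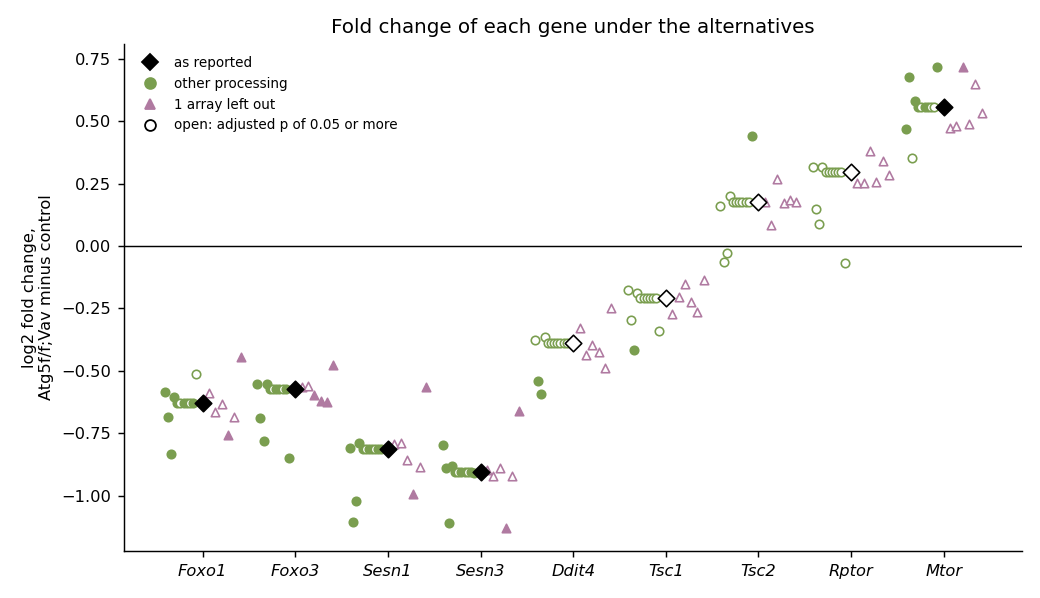
Log2 fold change (Atg5f/f;Vav minus control) of the 9 tested genes as reported (diamonds), under other processing (circles) and with 1 array left out (triangles). Filled symbols have an adjusted p under 0.05. Foxo1, Foxo3, Sesn1, Sesn3, Ddit4 and Tsc1 lie below 0 at every point and Mtor above 0, while Tsc2 and Rptor cross it.

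Genes elsewhere in the same pathway were taken from 9 lists holding 91 genes, of which 88 could be tested. In Atg5f/f;Vav, 17 (19.3%) were called higher, a share near the 18.7% of all genes, and 8 (9.09%) lower, beside 15.3% of all genes. The median log2 fold change over the 88 was 0.11, that of all genes −0.03. Without control replicate 1, and without control replicate 2, 0 of the 88 were called higher or lower, beside 330 and 251 of all 32074 probes called. Without replicate 2 or replicate 3 of Atg5f/f;Vav, 9 and 10 of the 88 were called higher. Of all probes, 3849 and 4524 were then called higher, against 5540 with all arrays.

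Amino acid sensing, which tethers mTOR complex 1 to lysosomes through Rag GTPases and is gated by the GATOR complexes, had 7 of 24 genes higher (29.2%, beside 18.7% of all genes) and 1 lower (4.17%, beside 15.3%). Sec13, a GATOR2 and coat protein, was at −0.15 ± 0.20 in controls and 0.78 ± 0.17 in Atg5f/f;Vav (SD, n = 3 each), a log2 difference of 0.93 (adjusted p = 0.0147). The GATOR2 genes Mios and Wdr59 rose by 0.52 each (adjusted p = 0.0437 and 0.0451), and the Rag GTPase gene Rragc by 0.53 (adjusted p = 0.0214). A second Rragc probe had a log2 fold change of −0.30 and was not called. The other Rag gene called, Rragb, fell by 0.93 (adjusted p = 0.0149). Of the 7 higher genes, only Sec13 and Rragc remained called with scaling over the probes detected on all arrays (adjusted p = 0.0159 and 0.0493). Mios and Wdr59 were at 0.32 and 0.31 with that scaling (adjusted p = 0.103 and 0.106). With quantile normalisation Mios was at 0.43 and not called (adjusted p = 0.0628). Lamtor2 and Lamtor4, also among the 7, were not called with it either (adjusted p = 0.225 and 0.472).

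In the PI3K and Akt list, which relays insulin and growth factor signals to FoxO factors, 3 of 17 genes were higher and 3 lower (17.6% each, beside 18.7% and 15.3% of all genes). Pik3ca, the catalytic subunit p110 alpha, fell by 1.92: its values were 4.08, 4.61 and 3.84 in controls and 2.52, 2.78 and 1.45 in Atg5f/f;Vav (adjusted p = 0.0167). Pik3r1, the main regulatory subunit, fell by 0.62 (adjusted p = 0.0165) and the insulin receptor gene Insr by 0.86 (adjusted p = 0.0154). Their relatives Pik3cb and Pik3r2 rose by 0.81 and 0.93 (adjusted p = 0.0336 and 0.0248). Akt2, one of the kinases that phosphorylate FoxO factors, rose by 0.59 (adjusted p = 0.0253), and both its other probes were called higher too. With quantile normalisation Akt2 was at 0.32 and not called (adjusted p = 0.0798), and with scaling over the probes detected on all arrays Pik3cb was at 0.60 and not called (adjusted p = 0.0620). Igf1r, the receptor of insulin-like growth factor, was not called at its brightest probe (0.30), while 3 other probes of it were called lower.

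Among direct effectors of mTOR complex 1, 3 of 14 genes were higher (21.4%, beside 18.7% of all genes) and 0 lower. All 3 act on translation: the cap-binding factor Eif4e rose by 0.71, its inhibitor Eif4ebp1 by 0.76 and the RNA-binding protein gene Larp1 by 0.77 (adjusted p = 0.0187, 0.0227 and 0.0239). With quantile normalisation, Eif4ebp1 and Larp1 were at 0.46 and 0.41 and not called (adjusted p = 0.0580 and 0.0811). In the AMPK list, the energy sensor that opposes mTOR complex 1, the upstream kinase gene Stk11 and the subunit gene Prkag1 rose by 0.65 and 0.46 (adjusted p = 0.0289 and 0.0380), the subunit gene Prkag2 fell by 0.78 (adjusted p = 0.0410), and 5 of 8 genes were not called (37.5% called, beside 34.0% of all genes). Prkag1 was at 0.13 with quantile normalisation (adjusted p = 0.334) and at 0.26 with scaling over the probes detected on all arrays (adjusted p = 0.109), and Stk11 at 0.44 with that scaling (adjusted p = 0.0515). Prkag2 was at −0.52 without replicate 3 of Atg5f/f;Vav (adjusted p = 0.0286).

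The remaining lists are short, and their counts stand beside 34.0% of all tested genes called. Tti2, which helps to assemble mTOR complexes, was the 1 called of 6 genes of its list (16.7%). It was higher by 0.39 (adjusted p = 0.0293), but another of its probes was called in the opposite direction. None of 4 mTOR complex 2 genes was called, with Rictor at −0.23 (95% interval −0.49 to 0.02) and Mapkap1 at 0.28 (0.04 to 0.53) at their brightest probes. Of the dimmer probes, 2 of the 5 for Rictor and 1 for Prr5l (−1.07) were called lower, and 1 for Mapkap1 was called higher. None of the 3 genes Tbc1d7, Rheb and Rhebl1 was called, and Rheb was at −0.26 (−0.57 to 0.06) at its brightest probe and called higher by 0.44 at another. Sesn2, the third sestrin, was at −0.22 (−0.48 to 0.05). Ddit4l, a relative of Ddit4, was well above background on the 3 control arrays only, so it passed the filter through the controls alone. By the bound for dim signals it was at least 1.11-fold lower in Atg5f/f;Vav. Its call (limma, adjusted p = 0.0188) rests on Atg5f/f;Vav signals that were not well above background. With another background correction it was at −0.39 and not called (limma, adjusted p = 0.0553). Among proteins that modify FoxO factors, the kinase gene Mapk8 and the acetyltransferase gene Crebbp fell by 0.59 and 0.54 (adjusted p = 0.0257 and 0.0421). The methyltransferase gene Prmt1 rose by 0.59 (adjusted p = 0.0261). In this list 7 of 10 genes were not called, and the 30% called lie near the 34.0% of all genes. Prmt1 was at 0.22 with quantile normalisation (adjusted p = 0.175) and at 0.38 with scaling over the probes detected on all arrays (adjusted p = 0.0514), and Tti2 at 0.18 with either (adjusted p = 0.144 and 0.132).

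**Figure D4:**
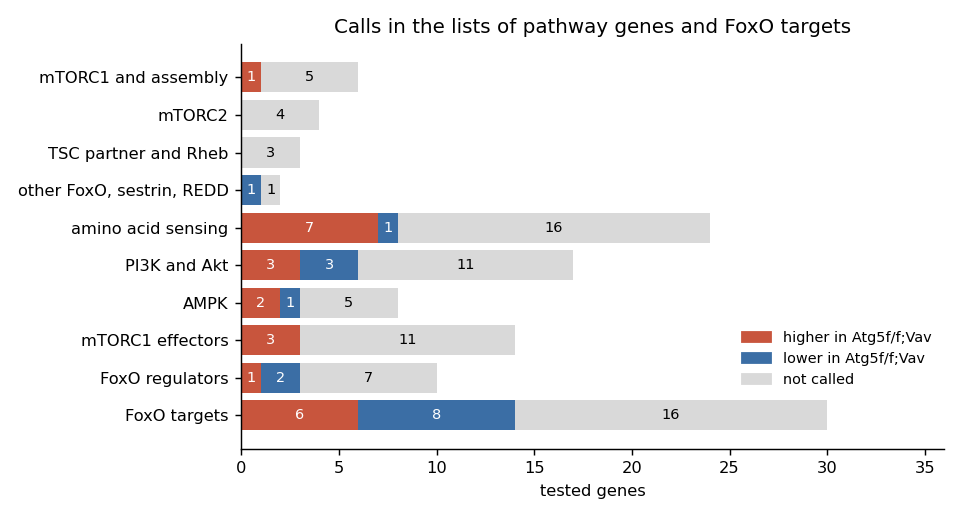
Number of tested genes higher (red), lower (blue) or not called (grey) in Atg5f/f;Vav in the 9 lists of pathway genes and the list of FoxO targets. Amino acid sensing holds 7 higher and 1 lower, and FoxO targets 6 higher and 8 lower.

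FoxO targets, 32 genes that textbooks give as activated by FoxO factors in 1 tissue or another, went both ways. Of 30 tested, 6 were higher, beside 18.7% of all genes on the array, and 8 (26.7%) were lower in Atg5f/f;Vav, beside 15.3%. The median log2 fold change was −0.12. In 24 of the 30 the groups were fully apart, beside 55.9% of all genes. Without control replicate 1, and without control replicate 2, 0 were called, beside 330 and 251 of all 32074 probes. Leaving out control replicate 3 left 1 called lower, and leaving out replicate 2 of Atg5f/f;Vav left 4. Of all probes, 3806 and 3873 were then called lower, against 5484 with all arrays.

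The targets that fell include cell cycle inhibitors and trafficking genes. Cdkn1c, the inhibitor p57 that is linked to HSC quiescence, read 1.68, 1.70 and 1.59 in controls and 0.90, 0.87 and −0.34 in Atg5f/f;Vav, a fall of 1.18 (adjusted p = 0.0335). Ccng2, an unusual cyclin that slows the cell cycle, fell by 0.75 (adjusted p = 0.0427). Trp53inp1, a stress protein, fell by 0.86 (adjusted p = 0.0431), and S1pr1, a sphingosine receptor that guides cells out of tissues, by 0.90 (adjusted p = 0.0219). Txnip, whose promoter is shown above, was at 5.26 ± 0.11 in controls and 4.72 ± 0.17 in Atg5f/f;Vav (SD, n = 3 each, adjusted p = 0.0241). Replicate 3 of Atg5f/f;Vav was the lowest array for Cdkn1c, Ccng2, Trp53inp1, S1pr1 and Txnip, as for the sestrins. Without it, Cdkn1c was at −0.77, Ccng2 at −0.49 and Trp53inp1 at −0.56, all still called (adjusted p = 0.0112, 0.0341 and 0.0326). With quantile normalisation Trp53inp1 was at −0.81 and not called (adjusted p = 0.0562).

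The targets that rose include another cell cycle inhibitor. Cdkn1a, the inhibitor p21 that p53 also activates, read −1.84, −1.40 and −0.95 in controls and −0.15, −0.35 and −0.27 in Atg5f/f;Vav, a rise of 1.14 (adjusted p = 0.0168). Every Atg5f/f;Vav array lay above every control array. Gadd45b, a stress-response gene, rose by 0.93 (adjusted p = 0.00922) and the mitochondrial peroxidase gene Prdx3 by 0.83 (adjusted p = 0.0211). Of the antioxidant genes that FoxO factors are best known to activate, Sod2 was at 0.40 (adjusted p = 0.0575) and Cat at 0.47 (adjusted p = 0.0565). Neither was called, and for both the groups did not overlap, with Atg5f/f;Vav higher.

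**Figure D5:**
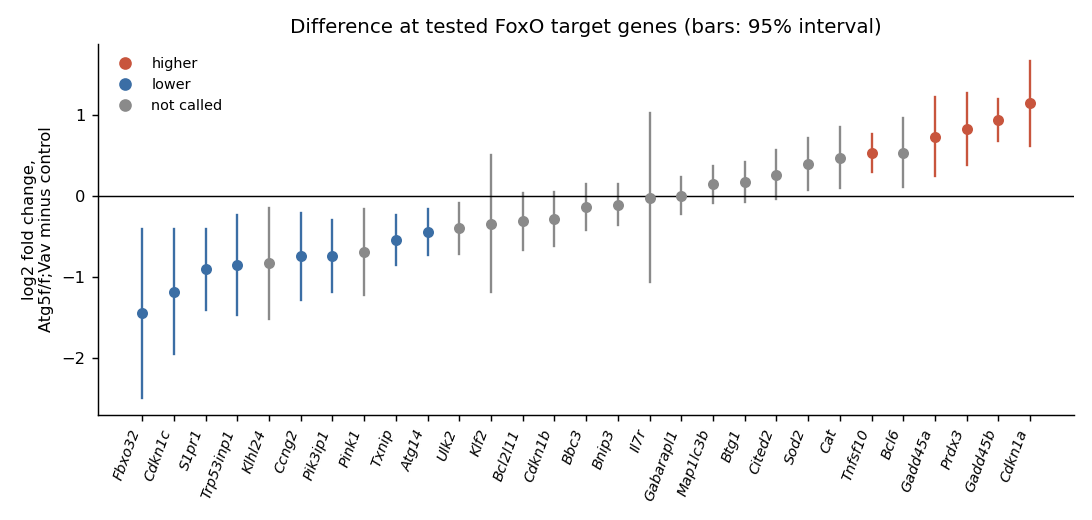
Log2 fold change (Atg5f/f;Vav minus control) with its 95% interval for 29 of the 30 tested FoxO target genes, ordered by value, with called genes in colour. Values run from −1.45 (Fbxo32) to 1.14 (Cdkn1a), with 8 of the plotted genes called lower and 5 higher.

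The 39 genes called in these 10 lists include Ddit4l, which passed the filter through the controls alone. None of the 39 changed direction under the 4 other background, scaling and normalisation settings. With scaling over the probes detected on all arrays, 12 of the 23 higher and 16 of the 16 lower remained called. With quantile normalisation, 14 and 14 did. Of all probes, 3365 were called higher and 10086 lower with the former setting, and 4714 and 3705 with the latter. As reported, 5540 and 5484 were. Leaving out 1 array turned no direction of the 39. None of the 39 remained called by limma with adjustment without control replicate 1 or without control replicate 2. In these settings 330 and 251 of all 32074 probes were called. Of the 39 genes, 37 and 38 then had an unadjusted p under 0.05. Without control replicate 3, 17 of the higher and 7 of the lower remained called, beside 8344 of all probes. Without replicate 2 of Atg5f/f;Vav 14 and 11 did, beside 7722 of all probes.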

How the data were processed

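RNA of LSK cells from 3 control and 3 Atg5f/f;Vav samples was hybridised to 1-colour Agilent arrays. Scanner files deposited by the authors give an intensity per spot, background-corrected with Agilent Feature Extraction 12.0.3.1. Their deposited table gives a normalised signal, equal to intensity over 1 constant per array (to within 0.000267%). Groups follow the labels.

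Each log2 intensity was scaled by subtracting the 75th percentile of its array (taken on 59305 spots, control spots excepted) and averaged over the spots of a probe, leaving out spots flagged as outliers (64 to 81 per array). No spot was saturated. A probe was tested if well above background on 3 or more of the 6 arrays, with the functions lmFit and eBayes of limma 3.58.1 (R 4.3.3), 2-sided and adjusted by Benjamini-Hochberg over all probes (threshold 0.05). Where a whole group was not well above background, the fold is a bound set by the lowest signal detected on each array. The number of arrays limits the precision. The test was also run on simulated arrays with independent noise and few changed probes. That setting differs from these arrays, so it does not bear on the calls above.

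Genes and lists were chosen with earlier results of these data known. All 10 genes are named, with every probe. From each list, up to 4 genes each way are named, by size of change among those called, detected on all arrays and without overlap, or up to 2 well known genes where none passed. Txnip, Ddit4l, Igf1r, Lamtor2, Lamtor4, Sod2, Cat and Fbxo32 were named after their values were seen. The values of 2 list genes are not reported here. Promoters were matched by symbol (26 of 32 FoxO targets).

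Alternatives changed the background correction (normexp, offset 50), the scaling (quantile normalisation, or a percentile taken on probes that every array detected), the source (deposited signal), the filter on dim probes (none, or all 6 arrays), the flagged spots (kept), the moderation (an intensity trend), the test (the methods' t-test), the pairing (replicate number as a block), the arrays (each left out) and the probes (mean over a gene). Probe coordinates are those of the files (mm9), and no gene annotation of that build was used here.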

Additional observations from a re-analysis of the deposited data

How the results depend on the processing

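Of 153 values of the 9 tested genes under the alternatives, 114 kept their direction and their side of the threshold, 32 lost a call, 4 gained one and 3 changed sign. Foxo3 lost its call in 4 of 17 alternatives, Sesn1 and Sesn3 in 6, Foxo1 in 7 and Mtor in 9. Rptor turned to −0.066 with the mean over all probes of a gene, and Tsc2 to −0.064 with quantile normalisation and −0.029 with scaling over the probes detected on all arrays.

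The count of the 10 genes called higher was 0 with that scaling, without the filter on dim probes, with the methods' t-test and with the replicate block, and 2 with the mean over all probes. The count called lower was 0 without the filter and with the methods' t-test. With that t-test, 0 of 32074 probes passed after Benjamini-Hochberg adjustment, 13541 and 6 of the genes passing unadjusted. Without the filter 4538 of 56605 probes were called. Other pathway genes called higher numbered 8 with quantile normalisation, 7 with the scaling over detected probes and 2 without the filter, and those called lower 21 with that scaling and 5 without the filter. FoxO targets called lower numbered 14 with that scaling and 1 without the filter. With the t-test all 4 counts were 0. Of all probes, 10086 of 32074 were called lower with that scaling and 2214 of 56605 without the filter, against 5484 as reported. Those called higher numbered 4714 with quantile normalisation, 3365 with that scaling and 2324 without the filter, against 5540 as reported. The cause of these changes was not tested.

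Leaving out 1 array gave 251 to 10304 probes called (330 without control replicate 1 and 251 without control replicate 2), 0 to 1 of the genes higher and 0 to 4 lower, 0 to 14 other pathway genes higher and 0 to 8 lower, and 0 to 6 FoxO targets higher and 0 to 11 lower.

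Deviations from the group mean correlated at −0.07, 0.19 and 0.11 between same-numbered arrays. Between arrays of different numbers they correlated at −0.03 to 0.13, −0.09 to −0.04 and −0.30 to 0.10, respectively. With 3 arrays per group, these values cannot decide whether same-numbered samples were paired. With the replicate number as a block, 10173 probes, 0 of the genes higher and 4 lower, and 4 FoxO targets lower were called. Mtor was then at an adjusted p of 0.0524.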
